A study of Mus musculus with 18 samples.

Results

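The genes described here encode the Golgi enzymes that build and finish glycans: the glycosyltransferases and sulfotransferases of 10 families. They were chosen by gene symbol alone, with no measured value, as the polypeptide N-acetylgalactosaminyltransferases (Galnt), the B3gal and B4gal enzymes, the carbohydrate sulfotransferases (Chst), the heparan sulfate sulfotransferases (Hs2st, Hs3st, Hs6st and Ndst), the sialyltransferases (St3, St6 and St8), the exostosins (Ext and Extl), the xylosyltransferases (Xylt), the fucosyltransferases (Fut) and the N-acetylglucosaminyltransferases (Mgat). The rule found 103 of the 20200 gene symbols listed in any of the 3 count tables, with 92 of them listed for bone, 91 for bone chips and 103 for the ESC comparison. The largest families were the sialyltransferases with 20 genes, the B3gal and B4gal enzymes with 18, Galnt with 16 and Chst with 13.

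Glycans are assembled in the Golgi by enzymes that act one after another, each passing a sugar from an activated donor or a sulfate group to the growing chain. Galnt enzymes start O-glycans on serine and threonine, xylosyltransferases start the glycosaminoglycan chains of proteoglycans, and Mgat enzymes branch N-glycans, while sialyltransferases and fucosyltransferases cap the ends. Sulfotransferases then place sulfate on chondroitin, heparan and keratan sulfate. In the skeleton, sulfated proteoglycans make up much of the cartilage matrix, and osteoblasts secrete glycosylated matrix proteins and small proteoglycans along with type I collagen.

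The RNA came from Col2.3GFP mice or ESC, in which a fragment of the *Col1a1* promoter drives GFP in maturing osteoblasts. The 6 populations, each with 3 libraries, form 3 pairs: GFP+ (hi) against GFP- cells sorted fresh from long bone, GFP+ (hi) against GFP- cells sorted from bone chips cultured under osteogenic conditions, and GFP+ cells differentiated from mouse ESC (ESC-OB GFP+) against the ESC. The GFP- cells are a mixture of cell types by label, the ESC are called undifferentiated here from their title although 1 label gives them osteogenic differentiation, and age, sex and the number of animals per library are not given in the labels. Levels are given as CPM, a gene's counts scaled to a common library size, and since each source was scaled on its own, levels of different sources are not on 1 scale.

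The 18 libraries held 4920977 to 43874837 counts in total, and those of bone 21425212 to 43874837 in GFP+ (hi) cells, against 5482065 to 6468750 in GFP- cells. *Col1a1* took 36.2% to 37.5% of all counts in bone GFP+ (hi) cells, against 0.805% to 1.59% in bone GFP- cells. It took 12.1% to 14.4% in bone chip GFP+ (hi) cells but only 0.324% to 0.774% in ESC-OB GFP+ cells. All 9 osteoblast markers were higher in GFP+ (hi) cells of bone and of bone chips. In ESC-OB GFP+ cells 5 of the 6 tested were higher and 1 was lower, at a summed 5499 to 15469 CPM, against 248 to 418 CPM in ESC. Bone GFP- cells carried cartilage transcripts: 10 of 11 chondrocyte markers were lower in GFP+ (hi) cells, at a summed 10780 to 13792 CPM, against 103541 to 215016 CPM in GFP- cells. ESC-OB GFP+ cells also carried epithelial markers (6 of 7 higher), at a summed 3450 to 5115 CPM, against 431 to 567 CPM in ESC. Higher there too were monocyte and macrophage markers (5 of 5 tested) and fibroblast markers (6 of 6). The part of these other cells in the results below was not tested, and in sorted mixtures fewer cells of a type and less RNA per cell cannot be told apart. Transcripts of 4 chromosome Y genes summed to 6, 913 and 9 counts in bone GFP+ (hi) replicates 1, 2 and 3, against 625 to 1167 counts in bone GFP- cells. Bone GFP+ (hi) replicates 1 and 3 thus stood apart, and bone calls that were lost without both are named where the gene is described.

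The first question was how many of these enzymes differed between GFP+ cells and their reference cells. Genes were tested with edgeR's quasi-likelihood test over all genes and called at an adjusted p under 0.05, and fold changes are given on the log2 scale with GFP+ over its reference. In bone, 78 members had enough counts to be tested, and 19 were higher and 25 lower in GFP+ (hi) cells, while 34 were not called. Over all 12559 genes tested in bone, 19.5% were called higher and 22.1% lower (41.7% in either direction). In bone chips, 75 members were tested, and 20 were higher and 31 lower, where 20.4% and 23.1% of all genes were called. In the ESC comparison, 85 members were tested, and 52 were higher and 14 lower in ESC-OB GFP+ cells, where 43% and 34.7% of all genes were called. The members tested had a median log2 fold change of -0.30 in bone, beside -0.0013 over all genes tested there. In bone chips the medians were -0.23 and -0.04, and for ESC-OB 1.45 and 0.22. A fit without bone GFP+ (hi) replicates 1 and 3 keeps only 1 GFP+ (hi) library, so its counts of calls are not set beside these. Of the members, 12 were tested in no comparison because their counts were too low: *Fut1*, *Fut7*, *Hs3st4*, *Hs3st5*, *Hs3st6*, *Hs6st3*, *Mgat4c*, *Ndst3*, *St6gal2*, *St6galnac1*, *St8sia3* and *St8sia5*.

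**Figure D1:**
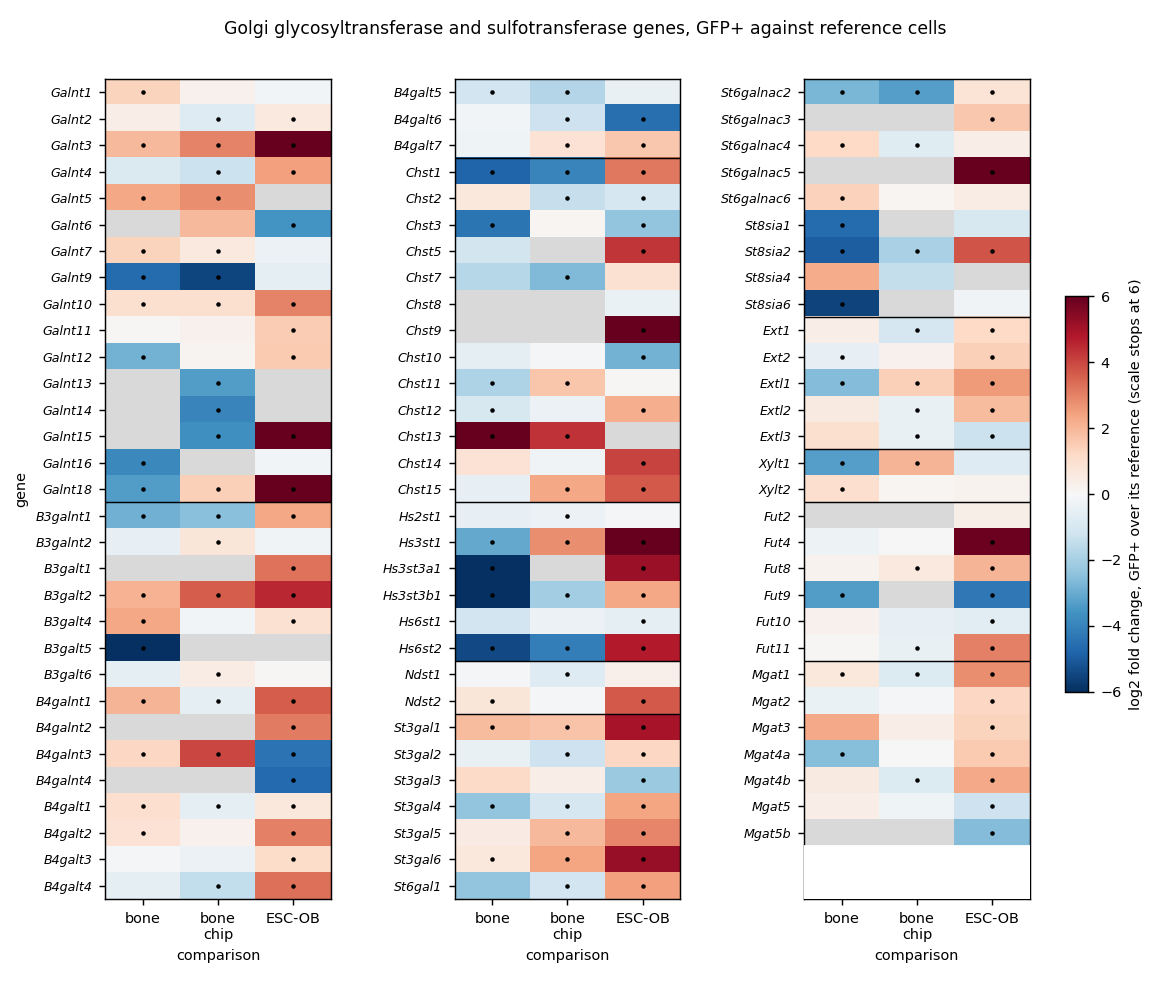
Log2 fold change of each member tested in at least 1 comparison, in rows by family (black lines part the families), for bone, bone chip and ESC-OB in columns, as GFP+ over its reference. Red is higher in GFP+ cells, blue is lower, grey was not tested, and a dot marks an adjusted p under 0.05. The ESC-OB column holds 52 genes called higher and 14 called lower, whereas in bone 19 were called higher and 25 lower.

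Of 68 members tested in all 3 comparisons, 5 were higher in GFP+ cells of all 3 sources (*Galnt3*, *Galnt10*, *St3gal1*, *St3gal6* and *B3galt2*) and 0 were lower in all 3. Over all 11623 genes tested in the 3 comparisons, 4.82% were higher and 3.09% lower in all 3. *Galnt3* starts O-glycans and is known for protecting the bone-derived hormone FGF23 from cleavage. In bone, *Galnt3* had 30.6, 21.5 and 33.1 CPM in GFP+ (hi) cells, against 4.51, 5.38 and 12.6 CPM in GFP- cells, a log2 difference of 1.92 with an SE of 0.37 (adjusted p = 0.00276). In bone chips it had 139, 125 and 136 CPM in GFP+ (hi) cells, against 13.7, 17.1 and 20.1 CPM in GFP- cells, a log2 difference of 2.97 with an SE of 0.15 (adjusted p = 3.1e-05). In the ESC comparison it had 71.2, 34.8 and 39.4 CPM in ESC-OB GFP+ cells, against 0.184, 0.388 and 0 CPM in ESC, a log2 difference of 7.43 with an SE of 0.51 (adjusted p = 3e-07). Every GFP+ library lay above every reference library in each source, and in ESC the gene was close to absent. *Galnt10* prefers peptides that already carry a sugar. Bone libraries held 90, 116 and 109 CPM in GFP+ (hi) cells, against 67.3, 39.2 and 56.9 CPM in GFP- cells, a log2 difference of 0.94 with an SE of 0.21 (adjusted p = 0.00573). Its bone chip libraries held 165, 192 and 206 CPM in GFP+ (hi) cells, against 97.9, 87.1 and 102 CPM in GFP- cells, a log2 difference of 0.97 with an SE of 0.11 (adjusted p = 0.00068). In the ESC comparison it was higher too, with 48.4, 36.3 and 56.6 CPM in ESC-OB GFP+ cells, against 6.82, 6.05 and 5.24 CPM in ESC, a log2 difference of 2.96 with an SE of 0.24 (adjusted p = 9.2e-07).

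*St3gal1* adds sialic acid to the core O-glycan that follows the first N-acetylgalactosamine, and its libraries did not overlap in any source. In bone, *St3gal1* had 48.2, 45.3 and 48.2 CPM in GFP+ (hi) cells, against 14.9, 10.6 and 12.3 CPM in GFP- cells, a log2 difference of 1.91 with an SE of 0.18 (adjusted p = 3.4e-05). The bone chip levels were 237, 232 and 269 CPM in GFP+ (hi) cells, against 69.5, 74.6 and 77.9 CPM in GFP- cells, a log2 difference of 1.73 with an SE of 0.10 (adjusted p = 4.1e-05). ESC-OB and ESC levels were 22.4, 24.2 and 19 CPM in ESC-OB GFP+ cells, against 1.47, 0.555 and 0.209 CPM in ESC, a log2 difference of 4.95 with an SE of 0.44 (adjusted p = 2e-06). *St3gal6* sialylates lactosamine ends and takes part in making selectin ligands. It was higher in bone, with 30.1, 28 and 26.4 CPM in GFP+ (hi) cells, against 19.3, 16.6 and 19 CPM in GFP- cells, a log2 difference of 0.63 with an SE of 0.16 (adjusted p = 0.0132). That call was lost without GFP+ (hi) replicate 1 (adjusted p = 0.0576), without GFP+ (hi) replicates 1 and 3 (adjusted p = 0.116) and with libraries thinned to 1 depth (adjusted p = 0.0742). In bone chips, *St3gal6* had 38.6, 40.3 and 31.7 CPM in GFP+ (hi) cells, against 6.27, 9.33 and 5.57 CPM in GFP- cells, a log2 difference of 2.39 with an SE of 0.21 (adjusted p = 0.0002). In the ESC comparison it was higher, with 19.8, 19.1 and 16.3 CPM in ESC-OB GFP+ cells, against 0.369, 0.555 and 0.419 CPM in ESC, a log2 difference of 5.23 with an SE of 0.35 (adjusted p = 2.6e-07). In the annotation 26.4% of its exon bases overlap *Dcbld2* on the opposite strand, and the strand setting of the counting is not stated. *Dcbld2* itself moved the other way, at log2 fold changes of -0.38 for bone, where it was not called (adjusted p = 0.346), -0.93 for bone chips and -2.18 for ESC-OB.

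*B3galt2* is a galactosyltransferase that acts on N-acetylglucosamine ends. In bone, *B3galt2* had 4.07, 8.13 and 2.55 CPM in GFP+ (hi) cells, against 0.66, 1.37 and 1.4 CPM in GFP- cells, a log2 difference of 2.09 with an SE of 0.57 (adjusted p = 0.0161). This call was lost without GFP- replicate 1 (adjusted p = 0.0595) and without GFP+ (hi) replicate 2 (adjusted p = 0.0782), the library with the highest level. In bone chips the groups lay apart, with 21.2, 25.3 and 24.3 CPM in GFP+ (hi) cells, against 1.66, 1.59 and 2.41 CPM in GFP- cells, a log2 difference of 3.62 with an SE of 0.19 (adjusted p = 3.3e-05). ESC-OB GFP+ cells held 184 counts over the 3 libraries, against 3 in ESC, a ratio of CPM of 22.9 with a 95% counting interval of 7.7 to 112 (exact binomial; such intervals cover counting error only).

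**Figure D2:**
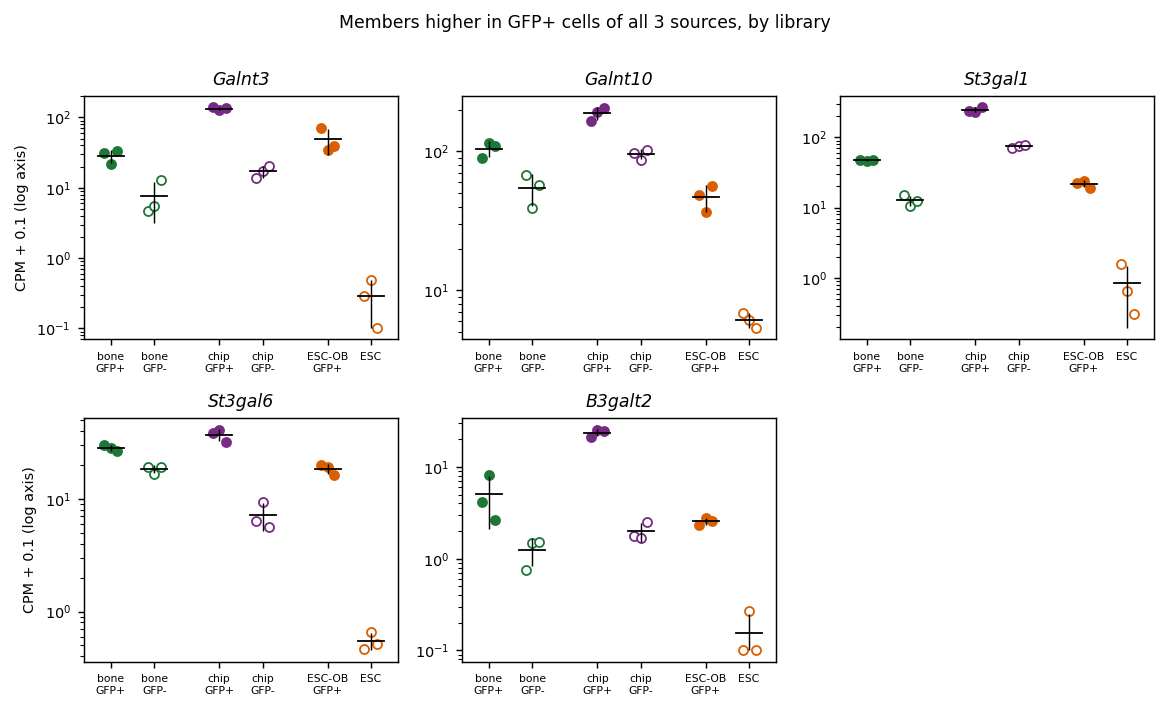
CPM of the 5 members higher in GFP+ cells of all 3 sources, by library, on a log axis after adding 0.1. Filled points are GFP+ libraries, open points are reference libraries, black lines are means and vertical bars are SD (n = 3). *Galnt3* lay at 125 to 139 CPM in bone chip GFP+ (hi) cells, against 13.7 to 20.1 CPM in GFP- cells.

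Since these genes were higher in GFP+ cells of all 3 sources, their promoters are shown, as 250 bases before and 50 after the start, from RefSeq (GRCm38.p6, another build than the counts). Capitals mark TGTGGT, the core motif of RUNX factors, where present. The table of promoters holds 102 promoters of 77 members, and none was given for *St3gal1*. The *St3gal6* promoter shown is that of the more upstream of its 2 starts.
Galnt3: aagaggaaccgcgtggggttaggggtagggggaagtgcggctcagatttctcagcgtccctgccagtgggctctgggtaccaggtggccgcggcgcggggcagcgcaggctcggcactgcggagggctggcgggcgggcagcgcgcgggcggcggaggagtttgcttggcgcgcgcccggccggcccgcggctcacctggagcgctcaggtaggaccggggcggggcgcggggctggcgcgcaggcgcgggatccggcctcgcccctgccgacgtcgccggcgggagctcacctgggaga
Galnt10: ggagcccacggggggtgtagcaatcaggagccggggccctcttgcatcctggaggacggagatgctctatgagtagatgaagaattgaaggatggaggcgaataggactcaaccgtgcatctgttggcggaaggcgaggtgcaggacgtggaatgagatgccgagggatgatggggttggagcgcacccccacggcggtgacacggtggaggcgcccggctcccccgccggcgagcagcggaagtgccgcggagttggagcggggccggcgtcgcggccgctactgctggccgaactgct
B3galt2: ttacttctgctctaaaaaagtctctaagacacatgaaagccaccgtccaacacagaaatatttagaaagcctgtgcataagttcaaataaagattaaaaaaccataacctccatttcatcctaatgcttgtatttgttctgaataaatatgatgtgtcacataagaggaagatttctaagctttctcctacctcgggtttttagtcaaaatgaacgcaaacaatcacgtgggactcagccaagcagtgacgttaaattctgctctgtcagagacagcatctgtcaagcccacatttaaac
St3gal6: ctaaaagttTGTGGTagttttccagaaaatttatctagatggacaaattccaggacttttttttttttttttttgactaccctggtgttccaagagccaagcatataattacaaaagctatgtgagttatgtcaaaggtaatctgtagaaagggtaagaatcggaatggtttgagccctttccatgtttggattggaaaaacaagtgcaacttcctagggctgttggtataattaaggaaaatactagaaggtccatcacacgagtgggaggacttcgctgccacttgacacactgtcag
The *Galnt3* promoter lies at chr2:66124744-66125043, minus strand, the *Galnt10* promoter at chr11:57645192-57645491, plus strand, the *B3galt2* promoter at chr1:143640447-143640746, plus strand and the *St3gal6* promoter at chr16:58524204-58524503, minus strand. They differ in base composition: the GC content is 76.7% for *Galnt3* and 66.0% for *Galnt10*, but 37.7% for *B3galt2* and 38.7% for this start of *St3gal6*. The other *St3gal6* start, which is not shown, has 64.7% and no TGTGGT. The median was 52.7% over 32851 promoters of 300 bases. TGTGGT was searched on both strands and stands in 7 of the 102 member promoters (6.86%) and in 16.8% of all promoters. TGACGTCA, the cyclic AMP response element, stands in 3 member promoters (2.94%) and in 1.79% of all. ACGTGGC, the Golgi stress response element, stands in 0 member promoters and in 2.58% of all. A match is a run of letters, not a binding site.

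The Galnt enzymes all start O-glycans but differ in the peptides they prefer. Of 12 tested in bone, 5 were called higher and 4 lower, beside 19.5% and 22.1% of all genes. Of 15 tested in bone chips, 5 were called higher and 6 lower, beside 20.4% and 23.1%. Of 13 tested against ESC, 8 were called higher and 1 lower, beside 43% and 34.7%. *Galnt5* and *Galnt7* were higher in GFP+ (hi) cells of bone and bone chips. The bone chip call of *Galnt7* was lost without GFP+ (hi) replicate 1 (adjusted p = 0.0515) and in 1 fit of all 18 libraries (0.179). *Galnt5* averaged 23.4 ± 6.88 CPM in GFP+ (hi) cells and 4.7 ± 2.18 CPM in GFP- cells of bone, and 32.8 ± 7.91 CPM in GFP+ (hi) cells and 4.71 ± 1.02 CPM in GFP- cells of bone chips (SD, n = 3 each). *Galnt18* changed direction with the source. In bone, *Galnt18* had 3.94, 4.37 and 7.37 CPM in GFP+ (hi) cells, against 47.2, 47.6 and 63.6 CPM in GFP- cells, a log2 difference of -3.34 with an SE of 0.27 (adjusted p = 1.5e-05). In bone chips its levels were 4.35, 6.39 and 4.63 CPM in GFP+ (hi) cells, against 1.39, 2.22 and 2.04 CPM in GFP- cells, a log2 difference of 1.42 with an SE of 0.25 (adjusted p = 0.00416). ESC-OB cells held 52.1, 33.8 and 48.7 CPM in ESC-OB GFP+ cells, against 0.922, 0.111 and 0 CPM in ESC, a log2 difference of 7.39 with an SE of 0.54 (adjusted p = 5e-07). The groups did not overlap in any of the 3. *Galnt12* was lower in bone, with 0.962, 1.57 and 0.0482 CPM in GFP+ (hi) cells, against 5.06, 6.86 and 6.2 CPM in GFP- cells, a log2 difference of -2.83 with an SE of 0.79 (adjusted p = 0.0176). Its call was lost without GFP- replicate 2 (adjusted p = 0.0624) or replicate 3 (adjusted p = 0.0519).

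Bone chip GFP- cells expressed Galnt genes that GFP+ (hi) cells held at low levels. *Galnt13*, an enzyme best known from neurons, had 10.5, 8.88 and 10.9 CPM in GFP+ (hi) cells, against 113, 66.5 and 129.7 CPM in GFP- cells, a log2 difference of -3.35 with an SE of 0.27 (adjusted p = 0.00013). *Galnt9* had 0.189, 0.249 and 0.239 CPM in GFP+ (hi) cells, against 10.8, 4.32 and 16.6 CPM in GFP- cells, a log2 difference of -5.49 with an SE of 0.64 (adjusted p = 0.00069). The GFP- libraries of bone chips spread over a wide range for both genes, but none overlapped the GFP+ (hi) libraries. Markers of fibroblasts and progenitors moved the same way in these cultures. Of these, 5 of 5 tested were lower in GFP+ (hi) cells, at a summed 207 to 237 CPM, against 511 to 869 CPM in GFP- cells. Of 6 monocyte and macrophage markers tested there, 1 was lower and 0 were higher. They summed to 464 to 750 CPM in GFP+ (hi) cells and spread from 328 to 3595 CPM in GFP- cells. The part of these cells was not tested. The only Galnt gene lower in ESC-OB GFP+ cells was *Galnt6*, which averaged 12.7 ± 4.37 CPM in ESC-OB GFP+ cells and 152 ± 12 CPM in ESC (SD, n = 3 each). Per kilobase of exon, the leading Galnt gene was *Galnt1* in bone GFP+ (hi) cells (41.1 ± 4.04 CPM per kb, mean ± SD). In bone GFP- cells *Galnt18* (20.5 ± 3.64) stood close to *Galnt1* (16.3 ± 2.43). In bone chip GFP+ (hi) cells *Galnt10* (31.4 ± 3.48) and *Galnt3* (30.5 ± 1.6) lay within their SD. *Galnt2* led in bone chip GFP- cells (33.8 ± 6.94), but 93.6% of its exon bases overlap other gene models. In ESC the leading gene was *Galnt6* (39.2 ± 3.11).

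Glycosaminoglycan chains begin with xylose, added by *Xylt1* or *Xylt2*, and the pair parted in bone. *Xylt1* is the form that cartilage is known to depend on. In bone, *Xylt1* had 4.65, 5.67 and 7.13 CPM in GFP+ (hi) cells, against 53.8, 50.3 and 67.4 CPM in GFP- cells, a log2 difference of -3.30 with an SE of 0.22 (adjusted p = 4.5e-06). In bone chips the order was turned, with 81.2, 95.4 and 60.2 CPM in GFP+ (hi) cells, against 21.5, 14.3 and 22.4 CPM in GFP- cells, a log2 difference of 2.02 with an SE of 0.23 (adjusted p = 0.0006). No library of one group reached the other group in either source. *Xylt2* was higher in bone GFP+ (hi) cells, with 35.3, 36.4 and 31.9 CPM in GFP+ (hi) cells, against 19.6, 15.6 and 16.8 CPM in GFP- cells, a log2 difference of 0.99 with an SE of 0.17 (adjusted p = 0.00134). *Xylt2* was not called in bone chips (log2 fold change 0.14, adjusted p = 0.587) or in ESC-OB (0.22, adjusted p = 0.254). Per kilobase of exon, *Xylt2* led in bone GFP+ (hi) cells at 8.68 ± 0.588 CPM per kb and *Xylt1* in bone GFP- cells at 15 ± 2.36 (mean ± SD). *Xylt1* led in bone chip GFP+ (hi) cells at 20.7 ± 4.63. In bone chip GFP- cells the pair lay within their SD, *Xylt2* at 5.73 ± 1.51 and *Xylt1* at 5.08 ± 1.17. The next linker sugars are galactoses. *B4galt7*, which adds the first, was higher in bone chips (0.89, adjusted p = 0.00039) and in ESC-OB (1.61, adjusted p = 2.8e-05) and not called in bone (-0.27, adjusted p = 0.179). *B3galt6*, which adds the second, was called higher in bone chips only just (0.42, adjusted p = 0.0452), and the call was lost under the replicate block (adjusted p = 0.0771) and in 11 of 13 alternatives.

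Of the chondroitin sulfotransferases, those that sulfate position 4 parted from one another. *Chst11* was lower in bone, with 17.8, 20.8 and 22.9 CPM in GFP+ (hi) cells, against 84.6, 71.5 and 66.4 CPM in GFP- cells, a log2 difference of -1.86 with an SE of 0.17 (adjusted p = 3.2e-05). In bone chips it was higher, with 201, 155 and 235 CPM in GFP+ (hi) cells, against 58.9, 45.6 and 80.2 CPM in GFP- cells, a log2 difference of 1.68 with an SE of 0.24 (adjusted p = 0.00157). *Chst12* was lower in bone (-0.97, adjusted p = 0.00181) and higher in ESC-OB (2.20, adjusted p = 1.6e-06). *Chst13*, the third of these enzymes, went the other way in bone. It had 37.2, 41 and 36.1 CPM in GFP+ (hi) cells, against 0, 0.229 and 0 CPM in GFP- cells. GFP+ (hi) libraries held 2510 counts in all, against 2 in GFP- libraries, a ratio of CPM of 497 with a 95% counting interval of 137 to 4107 (exact binomial). In bone chips, *Chst13* had 8.33, 5.48 and 12.4 CPM in GFP+ (hi) cells, against 0.348, 0.444 and 0.464 CPM in GFP- cells, a log2 difference of 4.33 with an SE of 0.38 (adjusted p = 0.00019). In ESC-OB it was too scarce to be tested. Per kilobase of exon, *Chst12* still had the highest mean of the Chst family in bone GFP+ (hi) cells at 26.8 ± 4.54 CPM per kb. *Chst13* stood within that SD at 23.1 ± 1.56. In bone GFP- cells *Chst12* had 52.4 ± 6.16.

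*Chst3* sulfates chondroitin at position 6. In bone, *Chst3* had 1.6, 0.957 and 0.289 CPM in GFP+ (hi) cells, against 11.2, 15.6 and 34.4 CPM in GFP- cells, a log2 difference of -4.37 with an SE of 0.61 (adjusted p = 0.00042). In bone chips the groups overlapped, with 4.17, 2.82 and 5.42 CPM in GFP+ (hi) cells, against 3.4, 4.44 and 3.48 CPM in GFP- cells, a log2 difference of 0.13 with an SE of 0.27 (adjusted p = 0.716). *Chst15*, which adds a second sulfate to chondroitin, averaged 63.7 ± 2.36 CPM in GFP+ (hi) cells and 12.9 ± 1.57 CPM in GFP- cells of bone chips (SD, n = 3 each), a log2 fold change of 2.30 (adjusted p = 2.9e-05). In ESC-OB its log2 fold change was 3.69 (adjusted p = 9.2e-07), and in bone it was not called (-0.49, adjusted p = 0.257). *Chst14*, which sulfates dermatan sulfate, was higher in ESC-OB, with 35.6, 30.1 and 33.8 CPM in ESC-OB GFP+ cells, against 3.13, 1.89 and 1.05 CPM in ESC, a log2 difference of 4.04 with an SE of 0.32 (adjusted p = 8.1e-07). The chondrocyte markers that were lower in bone GFP+ (hi) cells did not move together in bone chips, where 2 of 11 were higher and 4 lower, at a summed 9538 to 11403 CPM in GFP+ (hi) cells, against 5672 to 9769 CPM in GFP- cells. Their part in the bone values of *Xylt1*, *Chst11* and *Chst3* was not tested.

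**Figure D3:**
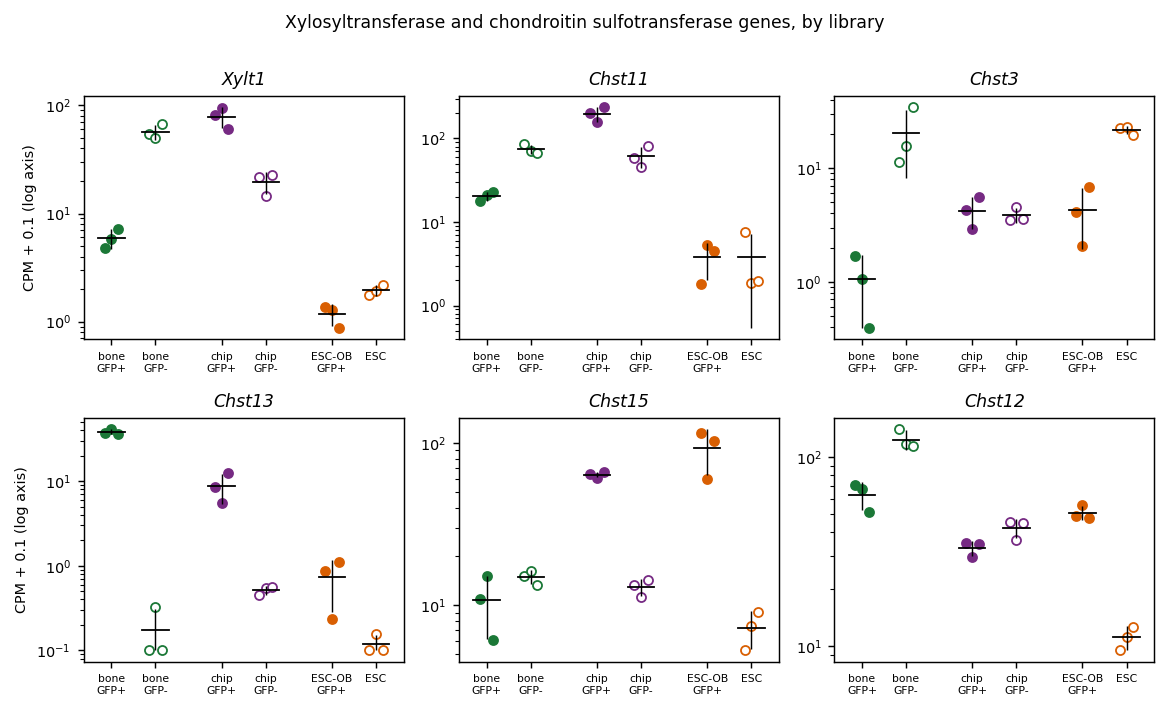
CPM of *Xylt1* and 5 chondroitin sulfotransferase genes by library, on a log axis after adding 0.1. Filled points are GFP+ libraries, open points are reference libraries, black lines are means and vertical bars are SD (n = 3). *Xylt1* and *Chst11* lay below their GFP- libraries in bone and above them in bone chips, and *Chst13* lay at 36.1 to 41 CPM in bone GFP+ (hi) cells, against 0 to 0.229 CPM in GFP- cells.

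*Chst1*, which sulfates the galactose of keratan sulfate, was lower in GFP+ (hi) cells of both bone sources. In bone it had 0.289, 0.683 and 0.144 CPM in GFP+ (hi) cells, against 7.59, 5.15 and 17.4 CPM in GFP- cells, a log2 difference of -4.81 with an SE of 0.68 (adjusted p = 0.00043). In bone chips, *Chst1* had 0.663, 0.498 and 0.638 CPM in GFP+ (hi) cells, against 10.2, 10.2 and 8.12 CPM in GFP- cells, a log2 difference of -3.97 with an SE of 0.21 (adjusted p = 3.3e-05). It was higher in ESC-OB (3.14, adjusted p = 0.0001). *Chst5*, a sulfotransferase of N-acetylglucosamine, was higher in ESC-OB, with 12.4, 10.6 and 12.8 CPM in ESC-OB GFP+ cells, against 0.369, 0.777 and 0.419 CPM in ESC, a log2 difference of 4.31 with an SE of 0.39 (adjusted p = 2.5e-06). *Chst9* had 164 counts in ESC-OB GFP+ cells, against 0 in ESC, and was at least 20.4-fold higher, taking 3 counts over the group as the floor.

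Heparan sulfate chains are polymerized by *Ext1* and *Ext2*, which form 1 complex, and the Extl enzymes take part in starting and extending them. *Ext2* was lower in bone, with 139.8, 139 and 131 CPM in GFP+ (hi) cells, against 198, 200.4 and 179 CPM in GFP- cells, a log2 difference of -0.49 with an SE of 0.13 (adjusted p = 0.015). The call was lost without GFP- replicate 1 (adjusted p = 0.0602), GFP+ (hi) replicate 1 (0.0525), GFP+ (hi) replicate 2 (0.0565) or GFP+ (hi) replicates 1 and 3 (0.238). *Ext1* was lower in bone chips, with 66.4, 56.9 and 91.8 CPM in GFP+ (hi) cells, against 140.2, 118 and 179 CPM in GFP- cells, a log2 difference of -1.02 with an SE of 0.22 (adjusted p = 0.00899). Both were higher in ESC-OB, at log2 fold changes of 1.19 for *Ext1* and 1.45 for *Ext2*. *Extl1* differed in direction between the bone sources. In bone, *Extl1* had 5.26, 5.4 and 9.44 CPM in GFP+ (hi) cells, against 45.7, 28.9 and 48.5 CPM in GFP- cells, a log2 difference of -2.61 with an SE of 0.30 (adjusted p = 0.00011). In bone chips it had 16.6, 14.7 and 10.8 CPM in GFP+ (hi) cells, against 6.79, 5.4 and 3.52 CPM in GFP- cells, a log2 difference of 1.43 with an SE of 0.27 (adjusted p = 0.0054). In the ESC comparison, *Extl1* had 10.2, 10.1 and 8.45 CPM in ESC-OB GFP+ cells, against 2.76, 1.39 and 0.838 CPM in ESC, a log2 difference of 2.54 with an SE of 0.41 (adjusted p = 0.0002). *Extl2* was higher in ESC-OB too, with 27.8, 24.6 and 21.8 CPM in ESC-OB GFP+ cells, against 7.93, 6.33 and 5.87 CPM in ESC, a log2 difference of 1.89 with an SE of 0.23 (adjusted p = 2.5e-05).

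Ndst enzymes open the way for the later sulfations by replacing acetyl with sulfate groups. *Ndst2* was higher in bone, with 15.6, 15.9 and 15.8 CPM in GFP+ (hi) cells, against 10.8, 9.27 and 8.89 CPM in GFP- cells, a log2 difference of 0.71 with an SE of 0.21 (adjusted p = 0.022). That call was lost without GFP- replicate 2 (adjusted p = 0.0538), GFP- replicate 3 (0.0543), GFP+ (hi) replicate 1 (0.0585), GFP+ (hi) replicate 2 (0.0633) or GFP+ (hi) replicates 1 and 3 (0.116). In ESC-OB it was higher, with 51, 44.1 and 44.9 CPM in ESC-OB GFP+ cells, against 4.79, 3.55 and 2.51 CPM in ESC, a log2 difference of 3.68 with an SE of 0.24 (adjusted p = 2.5e-07). *Ndst1* was lower in bone chips, with 54.4, 50.7 and 53.7 CPM in GFP+ (hi) cells, against 99.5, 69.7 and 102 CPM in GFP- cells, a log2 difference of -0.77 with an SE of 0.15 (adjusted p = 0.00646). *Hs2st1*, which sulfates the uronic acid, was lower in bone chips by a small margin, with 34.4, 30 and 34.7 CPM in GFP+ (hi) cells, against 45.9, 39.6 and 42.4 CPM in GFP- cells, a log2 difference of -0.37 with an SE of 0.10 (adjusted p = 0.021). Without any 1 of GFP- replicates 1 and 3 and GFP+ (hi) replicates 1 and 2 this call was lost, at adjusted p-values of 0.0949, 0.0733, 0.0548 and 0.0719.

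The Hs3st and Hs6st enzymes add the last sulfates to the chain. In bone, 4 of the 6 Hs2st, Hs3st and Hs6st genes tested were lower and 0 were higher, beside 22.1% and 19.5% of all genes. In bone chips 3 of 5 were lower and 1 higher, beside 23.1% and 20.4%. In ESC-OB 4 of 6 were higher and 1 lower, beside 43% and 34.7%. *Hs3st1* makes the antithrombin-binding site of heparan sulfate. In bone, *Hs3st1* had 0.192, 0.683 and 0.0482 CPM in GFP+ (hi) cells, against 1.54, 1.6 and 4.21 CPM in GFP- cells, a log2 difference of -3.06 with an SE of 0.89 (adjusted p = 0.0207). This call was lost without GFP- replicate 3 (adjusted p = 0.119), GFP+ (hi) replicate 1 (0.0721) or GFP+ (hi) replicates 1 and 3 (0.19). In bone chips, *Hs3st1* had 1.89, 1.74 and 2.63 CPM in GFP+ (hi) cells, against 0.261, 0.444 and 0.186 CPM in GFP- cells, a log2 difference of 2.81 with an SE of 0.39 (adjusted p = 0.00133). In ESC-OB it was higher, with 393, 151 and 283 CPM in ESC-OB GFP+ cells, against 1.84, 0.277 and 0.419 CPM in ESC, a log2 difference of 8.72 with an SE of 0.58 (adjusted p = 2.7e-07). Per kilobase of exon it led its family in ESC-OB GFP+ cells at 124 ± 54.3 CPM per kb (mean ± SD).

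*Hs3st3a1* and *Hs3st3b1* share a nearly identical catalytic part, so reads could be split between them and each value is uncertain. In bone, *Hs3st3a1* had 0.0641, 0.205 and 0 CPM in GFP+ (hi) cells, against 12, 9.27 and 10.6 CPM in GFP- cells, a log2 difference of -6.96 with an SE of 0.66 (adjusted p = 3.6e-05). *Hs3st3b1* in bone had 0.0962, 1.02 and 0 CPM in GFP+ (hi) cells, against 28.5, 31.1 and 20.8 CPM in GFP- cells, a log2 difference of -6.46 with an SE of 0.78 (adjusted p = 0.00017). GFP+ (hi) replicate 2, the library with chromosome Y transcripts, held the highest GFP+ (hi) level of both. Bone chips held little of either. *Hs3st3a1* had 0.284, 0.166 and 0.319 CPM in GFP+ (hi) cells, against 1.05, 0.444 and 0.232 CPM in GFP- cells and was not tested there. *Hs3st3b1* in bone chips had 0.473, 0.332 and 0.399 CPM in GFP+ (hi) cells, against 2.53, 1.08 and 1.72 CPM in GFP- cells, a log2 difference of -2.11 with an SE of 0.42 (adjusted p = 0.00633). In ESC-OB, *Hs3st3a1* had 6.08, 3.83 and 6.6 CPM in ESC-OB GFP+ cells, against 0.184, 0.111 and 0.209 CPM in ESC, a log2 difference of 5.17 with an SE of 0.57 (adjusted p = 1.1e-05). *Hs6st2*, an X-linked gene, had 5.11, 6.06 and 5.26 CPM in GFP+ (hi) cells, against 106, 67.2 and 121 CPM in GFP- cells, a log2 difference of -4.16 with an SE of 0.25 (adjusted p = 5e-05) in the bone chip comparison. In bone it had 0, 0.478 and 0 CPM in GFP+ (hi) cells, against 5.28, 6.29 and 5.61 CPM in GFP- cells and was called lower (adjusted p = 0.00339). All of its 7 bone GFP+ (hi) counts were in replicate 2, and the log2 fold change ran from -9.49 to -3.53 over the alternatives. It was higher in ESC-OB (4.74, adjusted p = 8.2e-07). The ubiquitous *Hs6st1* was lower in ESC-OB (-0.54, adjusted p = 0.0144), a call lost without ESC replicate 2 (adjusted p = 0.051), and was not called in bone or bone chips.

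**Figure D4:**
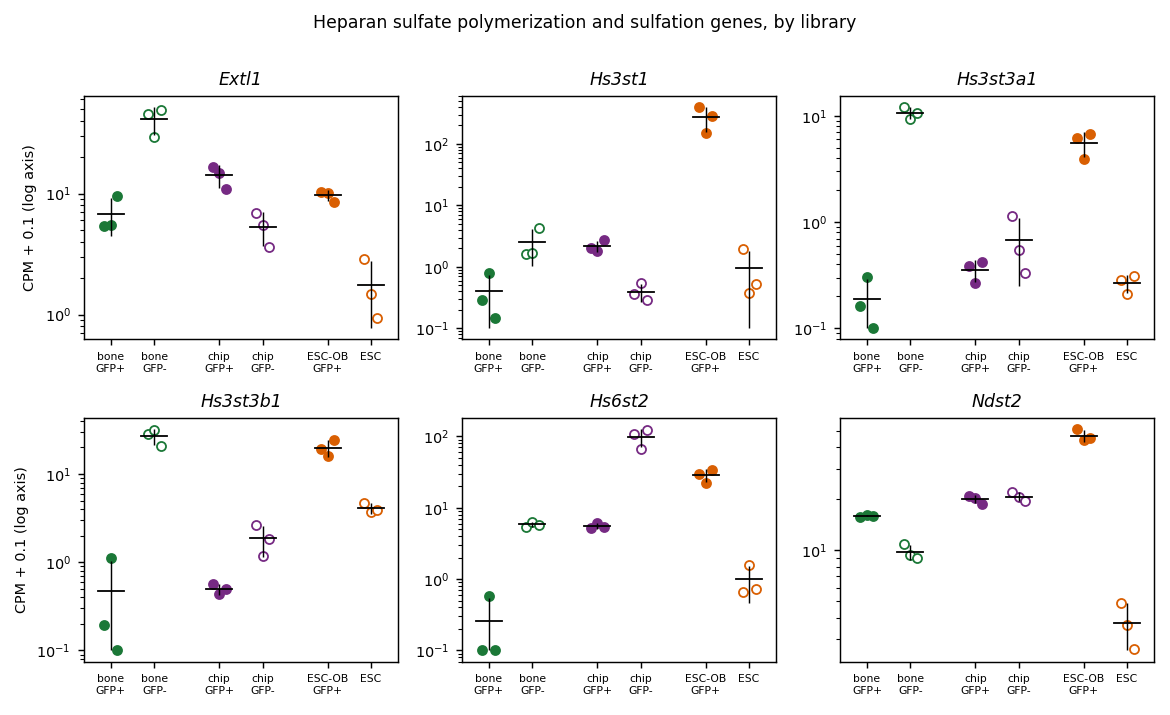
CPM of 6 heparan sulfate genes by library, on a log axis after adding 0.1. Filled points are GFP+ libraries, open points are reference libraries, black lines are means and vertical bars are SD (n = 3). *Hs3st1* reached 151 to 393 CPM in ESC-OB GFP+ cells, against 0.277 to 1.84 CPM in ESC, and *Hs3st3a1* and *Hs3st3b1* lay below their GFP- libraries in bone.

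N-glycans become complex once *Mgat1* adds the first branch. *Mgat1* was higher in bone, with 98.2, 104 and 109.7 CPM in GFP+ (hi) cells, against 67, 77.1 and 55.4 CPM in GFP- cells, a log2 difference of 0.64 with an SE of 0.16 (adjusted p = 0.0102). Without GFP+ (hi) replicates 1 and 3 the call was lost (adjusted p = 0.0954). In bone chips, *Mgat1* was lower, with 82.9, 78.4 and 88 CPM in GFP+ (hi) cells, against 149, 118 and 172 CPM in GFP- cells, a log2 difference of -0.81 with an SE of 0.15 (adjusted p = 0.00414). In ESC-OB it was higher, with 93.3, 88.3 and 96.9 CPM in ESC-OB GFP+ cells, against 16.6, 14.1 and 8.59 CPM in ESC, a log2 difference of 2.81 with an SE of 0.22 (adjusted p = 9e-07). Later branches are added by *Mgat4a*, *Mgat4b* and *Mgat5*. *Mgat4a* was lower in bone, with 4.65, 6.7 and 17.8 CPM in GFP+ (hi) cells, against 34.7, 91.9 and 42.5 CPM in GFP- cells, a log2 difference of -2.54 with an SE of 0.52 (adjusted p = 0.00394). *Mgat4b* was lower in bone chips, with 22, 21.3 and 22.5 CPM in GFP+ (hi) cells, against 39, 38.6 and 36.9 CPM in GFP- cells, a log2 difference of -0.80 with an SE of 0.08 (adjusted p = 0.00027). *Mgat5b*, a branching enzyme known from brain, was lower in ESC-OB, with 2.25, 1.14 and 0.402 CPM in ESC-OB GFP+ cells, against 7.93, 8.49 and 6.7 CPM in ESC, a log2 difference of -2.60 with an SE of 0.54 (adjusted p = 0.00107). *Mgat2*, which adds the second branch, was called only in ESC-OB (1.25, adjusted p = 4.4e-05) and led the Mgat genes per kilobase of exon in bone GFP+ (hi) cells at 31 ± 2.11 CPM per kb.

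Galactose is added to these branches by *B4galt1* and its relatives. In bone, *B4galt1* had 32.2, 35.9 and 31.7 CPM in GFP+ (hi) cells, against 19.3, 17.5 and 12.6 CPM in GFP- cells, a log2 difference of 1.01 with an SE of 0.20 (adjusted p = 0.00272). In bone chips the order was turned, with 76.7, 64.6 and 86.3 CPM in GFP+ (hi) cells, against 113, 106 and 114 CPM in GFP- cells, a log2 difference of -0.55 with an SE of 0.12 (adjusted p = 0.00884). *B4galt5* and *B4galt6* make lactosylceramide, the stem of most glycosphingolipids. In bone, *B4galt5* had 3.72, 3.14 and 5.1 CPM in GFP+ (hi) cells, against 5.17, 9.49 and 12 CPM in GFP- cells, a log2 difference of -1.15 with an SE of 0.38 (adjusted p = 0.0361). Its call was lost in 6 of 15 alternatives, with GFP- replicate 2 or 3 or GFP+ (hi) replicate 1 or 2 left out among them (adjusted p up to 0.161), and so without GFP+ (hi) replicates 1 and 3 (0.0686). *B4galt5* was lower in bone chips too (-1.76, adjusted p = 8.4e-05). *B4galt6* was lower in ESC-OB, with 11.2, 13.7 and 9.86 CPM in ESC-OB GFP+ cells, against 301, 262 and 239 CPM in ESC, a log2 difference of -4.53 with an SE of 0.20 (adjusted p = 2e-08). *B4galnt1*, which carries gangliosides on from lactosylceramide, had 11, 12.2 and 23.5 CPM in GFP+ (hi) cells, against 5.94, 1.83 and 3.74 CPM in GFP- cells, a log2 difference of 2.02 with an SE of 0.45 (adjusted p = 0.00602) in bone. In bone chips *B4galnt1* had 12.7, 10.2 and 14.9 CPM in GFP+ (hi) cells, against 16.2, 18.5 and 20 CPM in GFP- cells, a log2 difference of -0.54 with an SE of 0.16 (adjusted p = 0.0331). The bone chip call was lost without GFP- replicate 3 (adjusted p = 0.103), GFP+ (hi) replicate 1 (0.0948) or replicate 2 (0.085), and in 1 fit of all 18 libraries (0.272). Of its exon bases 29.4% overlap *Slc26a10* on the opposite strand, which averaged 0.594 CPM in bone GFP+ (hi) cells and 1.03 CPM in GFP- cells.

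*B4galnt3* and *B4galnt4* cap chains with N-acetylgalactosamine in place of galactose. *B4galnt3* was higher in bone chips, with 27, 29 and 29.1 CPM in GFP+ (hi) cells, against 2, 2.03 and 1.34 CPM in GFP- cells, a log2 difference of 4.0 with an SE of 0.17 (adjusted p = 2.3e-05). In bone it was called higher as well (1.25, adjusted p = 0.0369), but the call was lost without GFP- replicate 1 (adjusted p = 0.113), GFP- replicate 2 (0.112), GFP+ (hi) replicate 1 (0.101) or GFP+ (hi) replicate 2 (0.129). Against ESC it went the other way (-4.43, adjusted p = 1.2e-07). *B4galnt4* was lower in ESC-OB, with 2.35, 1.73 and 1.97 CPM in ESC-OB GFP+ cells, against 45.7, 57.6 and 52.2 CPM in ESC, a log2 difference of -4.67 with an SE of 0.22 (adjusted p = 3.1e-08). *B3galt5* had 0 counts in bone GFP+ (hi) cells, against 28 in GFP- cells, and was at least 23.6-fold lower in bone GFP+ (hi) cells, taking 3 counts over the group as the floor. Without GFP+ (hi) replicates 1 and 3 that call was lost (adjusted p = 0.0586), and in 6 of 15 alternatives the gene was too scarce to be tested.

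Sialyltransferases were called in both directions in each source. Bone GFP+ (hi) cells had 4 above and 5 below GFP- cells among 14 tested (19.5% and 22.1% of all genes), bone chip GFP+ (hi) cells had 3 above and 6 below among 12 (20.4% and 23.1%), and ESC-OB GFP+ cells had 10 above and 1 below ESC among 15 (43% and 34.7%). *St3gal4*, another enzyme of lactosamine ends, was lower in bone, with 6.35, 7.17 and 8.81 CPM in GFP+ (hi) cells, against 46.3, 35.3 and 32.3 CPM in GFP- cells, a log2 difference of -2.35 with an SE of 0.22 (adjusted p = 3e-05). It was lower in bone chips too (-1.03, adjusted p = 0.00049), whereas *St3gal6* was higher in both. In ESC-OB *St3gal4* was higher (2.37, adjusted p = 3.4e-05). *St3gal5*, which makes the ganglioside GM3, was higher in bone chips, with 88.8, 92.7 and 112 CPM in GFP+ (hi) cells, against 19.7, 27 and 28.3 CPM in GFP- cells, a log2 difference of 1.96 with an SE of 0.16 (adjusted p = 0.00016). *St6galnac4* adds sialic acid to an O-glycan that *St3gal1* or a related enzyme has already sialylated. In bone, *St6galnac4* had 39.7, 47.6 and 37.1 CPM in GFP+ (hi) cells, against 18.5, 18.3 and 17.2 CPM in GFP- cells, a log2 difference of 1.20 with an SE of 0.17 (adjusted p = 0.00042). In bone chips *St6galnac4* was lower, with 19.4, 17.4 and 24.6 CPM in GFP+ (hi) cells, against 32.3, 31 and 36.8 CPM in GFP- cells, a log2 difference of -0.70 with an SE of 0.14 (adjusted p = 0.00748). *St8sia2*, a polysialic acid synthase, was lower in bone, with 0.353, 0.615 and 0 CPM in GFP+ (hi) cells, against 6.16, 11.6 and 11.5 CPM in GFP- cells, a log2 difference of -4.95 with an SE of 0.78 (adjusted p = 0.00088). The GFP- cells of bone also held *St8sia1* and *St8sia6*, at 0.144 ± 0.174 CPM in GFP+ (hi) cells and 3.89 ± 1.77 CPM in GFP- cells for *St8sia1* and 0.0548 ± 0.0495 CPM in GFP+ (hi) cells and 3.1 ± 0.989 CPM in GFP- cells for *St8sia6* (SD, n = 3 each). *St6galnac5* had 149 counts in ESC-OB GFP+ cells, against 0 in ESC, at least 18.5-fold higher by the same floor.

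Of the fucosyltransferases, 1 of 5 tested was called in bone and 2 of 4 in bone chips, beside 41.7% and 43.5% of all genes. The bone call was *Fut9*, lower with 0, 0.0683 and 0.289 CPM in GFP+ (hi) cells, against 0.55, 1.49 and 1.64 CPM in GFP- cells, and it was lost in 7 of the 12 alternatives that tested it (adjusted p up to 0.117), also without GFP+ (hi) replicates 1 and 3 (0.0995). *Fut8*, which adds the core fucose of N-glycans, was higher in bone chips, with 39.8, 39.8 and 42.7 CPM in GFP+ (hi) cells, against 26.9, 23.8 and 31.2 CPM in GFP- cells, a log2 difference of 0.58 with an SE of 0.11 (adjusted p = 0.00643). In ESC-OB its log2 fold change was 2.06 (adjusted p = 4.7e-05). *Fut11* was lower in bone chips by a small margin, with 18.9, 16.1 and 16.5 CPM in GFP+ (hi) cells, against 25.7, 21.3 and 22.4 CPM in GFP- cells, a log2 difference of -0.43 with an SE of 0.11 (adjusted p = 0.0211). Without any 1 of GFP- replicates 1 and 3 and GFP+ (hi) replicates 2 and 3 the call was lost, at adjusted p-values of 0.0897, 0.0625, 0.0765 and 0.0622. *Fut4* and *Fut9* both make the Lewis x structure, known as a surface antigen of mouse ESC, and they parted. *Fut9* was lower in ESC-OB, with 4.91, 1.28 and 0.966 CPM in ESC-OB GFP+ cells, against 32.8, 56.3 and 54.3 CPM in ESC, a log2 difference of -4.30 with an SE of 0.53 (adjusted p = 2.7e-05). *Fut4* was higher in ESC-OB, with 15.6, 10.3 and 9.7 CPM in ESC-OB GFP+ cells, against 0.737, 0.0555 and 0 CPM in ESC, a log2 difference of 5.89 with an SE of 0.71 (adjusted p = 2.1e-05). Monocyte and macrophage markers, 5 of 5 tested being higher in ESC-OB GFP+ cells, stand beside the *Fut4* values. Of 8 granulocyte markers only 2 had enough counts to be tested, both higher. *Ltf* had 56215 counts in ESC-OB GFP+ cells, against 1 in ESC, and *Prtn3* had 100, against 3. The granulocyte sum of 662 to 840 CPM in ESC-OB GFP+ cells (0.111 to 0.737 CPM in ESC) thus rests mostly on *Ltf*. The part of such cells was not tested.

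To ask whether the difference between GFP+ (hi) and GFP- cells was itself different in fresh bone and in culture, both sources were put in 1 fit of 12 libraries. Of 83 members tested, the log2 fold change was greater in bone for 18 and lower in bone for 21, where 14.4% and 15.2% of all genes were called (29.6% in either direction). Of 71 members tested in both sources, 9 were called in opposite directions, where 4.97% of all genes were. Those lower in bone and higher in bone chips were *Xylt1*, *Chst11*, *Extl1*, *Hs3st1* and *Galnt18*. Those higher in bone and lower in bone chips were *Mgat1*, *B4galt1*, *B4galnt1* and *St6galnac4*. The bone effect minus the bone chip effect was -5.32 ± 0.34 (SE, adjusted p = 5.9e-07) for *Xylt1*. It was -3.53 ± 0.31 (SE, adjusted p = 5.2e-06) for *Chst11*, -4.05 ± 0.44 (SE, adjusted p = 2.5e-05) for *Extl1*, -4.75 ± 0.39 (SE, adjusted p = 2.8e-06) for *Galnt18* and -5.87 ± 1.04 (SE, adjusted p = 0.00116) for *Hs3st1*. *Chst3* differed as well, by -4.50 ± 0.73 (SE, adjusted p = 0.00063). Among the genes higher in bone and lower in bone chips, the difference was 2.55 ± 0.52 (SE, adjusted p = 0.00273) for *B4galnt1*, 1.91 ± 0.22 (SE, adjusted p = 4.7e-05) for *St6galnac4*, 1.57 ± 0.22 (SE, adjusted p = 0.00022) for *B4galt1* and 1.46 ± 0.23 (SE, adjusted p = 0.00046) for *Mgat1*. *Chst13* was higher in both sources, and its effect differed by 4.52 ± 0.86 (SE, adjusted p = 0.00179). With only 2 counts in bone GFP- cells that difference is imprecise, and it ran from 3.79 to 8.13 over the alternatives. *Hs3st3a1* differed by -5.92 ± 1.07 (SE, adjusted p = 0.00134), but it was too scarce in bone chips to be tested there alone. *Hs3st3a1* and *Hs3st1* were both near the floor in bone GFP+ (hi) cells, so their differences are imprecise too. Over the alternatives they ran from -8.21 to -5.42 for *Hs3st3a1* and from -6.98 to -5.17 for *Hs3st1*. *Hs3st3b1* was lower in both and differed by -4.33 ± 1.19 (SE, adjusted p = 0.016), a call lost with libraries thinned to 1 depth (adjusted p = 0.385) and without bone chip GFP+ (hi) replicate 1 (adjusted p = 0.0529). The GFP- cells of the 2 sources are different mixtures, so a difference in osteoblasts and a difference in their reference cannot be told apart in these contrasts.

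**Figure D5:**
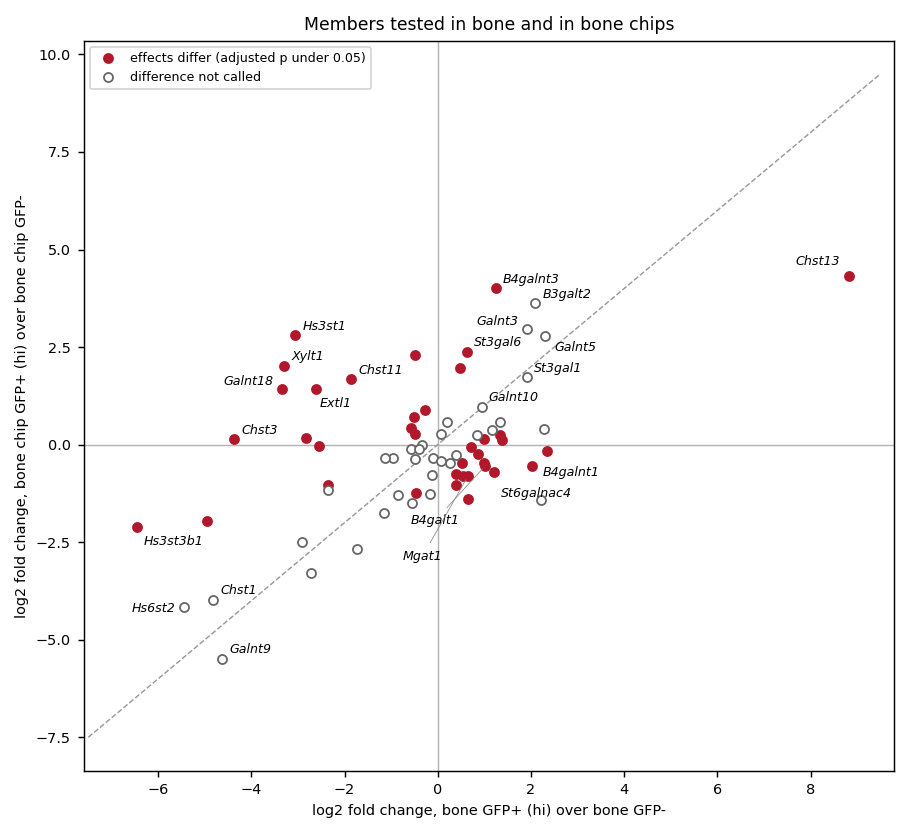
Log2 fold change in bone (horizontal) against bone chips (vertical) for members tested in both, each as GFP+ (hi) over GFP-. Red points are members whose 2 effects differed (adjusted p under 0.05), open points those not called, and the dashed line marks equal effects. *Xylt1*, *Chst11*, *Extl1*, *Galnt18* and *Hs3st1* lie in the upper left, lower in bone and higher in bone chips, and *Galnt3*, *Galnt10*, *St3gal1* and *B3galt2* are open points at the upper right.

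The genes higher in both bone sources were *Galnt3*, *Galnt5*, *Galnt7*, *Galnt10*, *St3gal1*, *St3gal6*, *B3galt2*, *B4galnt3* and *Chst13*. Those lower in both were *B3galnt1*, *B4galt5*, *Chst1*, *Galnt9*, *Hs3st3b1*, *Hs6st2*, *St3gal4*, *St6galnac2* and *St8sia2*. The share of all genes called the same way in both bone sources was not computed. Of these 9 genes lower in both, 7 were higher in ESC-OB GFP+ cells than in ESC. In that comparison 43% of all genes tested were higher, as were 52 of the 85 members tested. Of the bone calls, that of *B3galnt1* was lost without GFP- replicate 3 (adjusted p = 0.0738), GFP+ (hi) replicate 1 (0.0548) or GFP+ (hi) replicates 1 and 3 (0.0932). That of *Galnt9* was lost without GFP+ (hi) replicates 1 and 3 (adjusted p = 0.0809). That of *St6galnac2* was lost without GFP- replicate 2 (0.0552), GFP- replicate 3 (0.103) or GFP+ (hi) replicate 2 (0.0554), and its ESC-OB call in 5 of 13 alternatives (up to 0.14). *St8sia2* lost its bone chip call in 1 fit of all 18 libraries (adjusted p = 0.11) and its ESC-OB call with DESeq2 (0.136). *B3galnt1* averaged 32.3 ± 5.46 CPM in ESC-OB GFP+ cells and 6.21 ± 1.96 CPM in ESC, and *Hs6st2* averaged 28.7 ± 5.95 CPM in ESC-OB GFP+ cells and 0.893 ± 0.525 CPM in ESC (SD, n = 3 each). The 14 members lower in ESC-OB GFP+ cells were *B4galnt3*, *B4galnt4*, *B4galt6*, *Chst2*, *Chst3*, *Chst10*, *Extl3*, *Fut9*, *Fut10*, *Galnt6*, *Hs6st1*, *Mgat5*, *Mgat5b* and *St3gal3*. The calls of *Fut10* and *Chst2* were lost in 8 and 3 of 13 alternatives (adjusted p up to 0.149 and 0.0754). Bone GFP+ (hi) libraries held transcripts of pluripotency genes. Of these markers 6 of 6 tested were higher, at a summed 20.6 to 26.6 CPM, against 0.114 to 0.468 CPM in GFP- cells. Where these transcripts came from, and their part in the bone values, was not tested.

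Genes of the same pathways that the symbol rule leaves out were taken from 4 lists, whose counts stand beside 19.5% higher and 22.1% lower of all genes in bone, 20.4% and 23.1% in bone chips, and 43% and 34.7% in the ESC comparison. Of 19 genes that build the linker, polymerize or edit glycosaminoglycan chains, 16 were tested in bone, and 2 were higher and 9 lower. Bone chip GFP+ (hi) cells had 6 above and 8 below GFP- cells among 16, and ESC-OB GFP+ cells had 10 above and 1 below ESC among 18. *Ust*, which sulfates the uronic acid of chondroitin and dermatan sulfate, was higher in all 3. It averaged 100.3 ± 16.1 CPM in GFP+ (hi) cells and 12.1 ± 2.78 CPM in GFP- cells of bone, and 46.6 ± 10.8 CPM in GFP+ (hi) cells and 11.4 ± 1.28 CPM in GFP- cells of bone chips (SD, n = 3 each), at log2 fold changes of 3.05 (bone), 2.03 (bone chips) and 3.43 (ESC-OB). *Csgalnact1*, which starts chondroitin rather than heparan chains, had 1.99, 1.3 and 0.144 CPM in GFP+ (hi) cells, against 125, 145 and 84.3 CPM in GFP- cells in bone, a log2 fold change of -6.62 (adjusted p = 1.9e-05). In bone chips *Csgalnact1* was also lower (-3.28, adjusted p = 0.00013), unlike *Xylt1* and *Chst11*, and in ESC-OB it was higher (6.49, adjusted p = 7.1e-06). *Has2*, a hyaluronan synthase, averaged 0.309 ± 0.116 CPM in GFP+ (hi) cells and 47.4 ± 12.6 CPM in GFP- cells of bone (SD, n = 3 each). In ESC-OB GFP+ cells *Has2* had 491 counts, against 3 in ESC, a ratio of CPM of 61 with a 95% counting interval of 20.8 to 297 (exact binomial). *Has1*, a related synthase, had 614 counts in ESC-OB GFP+ cells, against 0 in ESC, at least 76.3-fold higher by the floor of 3 counts, and was lower in bone chips (-1.98, adjusted p = 0.00935). *Sulf2*, which removes 6-O sulfates from heparan sulfate, was lower in bone (-2.34, adjusted p = 4e-05), and *Dse*, a dermatan sulfate epimerase, in bone chips (-1.54, adjusted p = 0.00015).

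Of 29 genes that supply sugar and sulfate donors, all tested in bone, 5 were called higher and 16 lower (19.5% and 22.1% of all genes), with a median log2 fold change of -0.62. The bone chip counts were 11 and 4 (median 0.14), and the ESC-OB counts were 20 and 7 (median 1.34). *Papss2*, which makes the sulfate donor and is needed in cartilage, averaged 47.8 ± 11.8 CPM in GFP+ (hi) cells and 399 ± 35.8 CPM in GFP- cells of bone (SD, n = 3 each). *Slc35d1*, a transporter of donors for chondroitin, averaged 6.79 ± 1.05 CPM in GFP+ (hi) cells and 81.7 ± 16.7 CPM in GFP- cells of bone. *Gfpt2*, of the hexosamine pathway, was lower in bone (-4.02, adjusted p = 3.5e-05) and bone chips (-1.48, adjusted p = 0.00215). Chondrocyte markers moved the same way in bone, 10 of 11 being lower, and their part was not tested. *Gne*, which starts the synthesis of sialic acid, went the other way, at 148 ± 9.08 CPM in GFP+ (hi) cells and 29.5 ± 4.71 CPM in GFP- cells, a log2 fold change of 2.33 (adjusted p = 6.6e-06). In bone chips *Galk1*, a galactose kinase, and *Slc35a2*, a Golgi importer of activated galactose, were higher, at log2 fold changes of 1.27 and 1.18. In ESC-OB the leading changes were in *Papss2*, *Ugp2*, *Slc35d2* and *Slc35b3*, at log2 fold changes of 5.20, 2.18, 2.09 and 1.99.

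The list of 22 other Golgi glycan enzymes held 17 genes tested in bone, 4 called higher and 5 lower (19.5% and 22.1% of all genes). For bone chips the counts were 5 and 8 among 16, and against ESC they were 14 and 4 among 22. *Tpst1*, which sulfates tyrosines of secreted proteins, was lower in both bone sources (-3.40 in bone, adjusted p = 3.8e-05, and -3.43 in bone chips, adjusted p = 2.5e-05). *Gcnt1*, which branches the core O-glycan, averaged 113 ± 17.3 CPM in GFP+ (hi) cells and 16.3 ± 7.86 CPM in GFP- cells of bone chips (SD, n = 3 each). Its relatives *Gcnt2* in bone (-1.99, adjusted p = 0.00039) and *Gcnt4* in bone chips (-2.02, adjusted p = 0.00061) were lower. *Man1a*, a mannosidase that trims N-glycans, was lower in bone (-3.24) and bone chips (-2.11) and higher in ESC-OB (5.26). Also leading in ESC-OB were *Gcnt3*, *Gcnt1* and *Man1c1*, at log2 fold changes of 3.74, 3.61 and 2.02. *Gal3st1*, which makes sulfatide, had 0 counts in bone GFP+ (hi) cells, against 377 in GFP- cells, at least 317-fold lower in bone GFP+ (hi) cells by the floor of 3 counts. Of 21 core proteins that carry glycosaminoglycans, 18 were tested in bone, 6 called higher and 5 lower. The bone chip counts were 8 and 5 among 18, and the ESC-OB counts 12 and 5 among 20. *Acan*, the main proteoglycan of cartilage and a chondrocyte marker, averaged 22.8 ± 12.1 CPM in GFP+ (hi) cells and 2389 ± 629.6 CPM in GFP- cells of bone (SD, n = 3 each). *Bcan*, a related proteoglycan known from brain, was higher, at 119 ± 6.73 CPM in GFP+ (hi) cells and 2.53 ± 2.06 CPM in GFP- cells of bone and 18.7 ± 10.7 CPM in GFP+ (hi) cells and 0.94 ± 0.135 CPM in GFP- cells of bone chips. The cell surface proteoglycans *Sdc4* and *Gpc6* were lower in bone, at log2 fold changes of -3.27 and -3.24. In bone chips *Vcan* was lower (-2.90), and *Gpc1* (2.85) and *Cspg4* (2.29) were higher. In ESC-OB, *Bgn*, *Srgn* and *Cspg4* were higher, at log2 fold changes of 9.15, 8.0 and 7.03. *Dcn*, a small proteoglycan of connective tissue, had 47039 counts in ESC-OB GFP+ cells and 0 in ESC, at least 5844-fold higher by that floor.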

How the data were processed

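The authors aligned paired reads of poly-A RNA to mm9 with STAR 2.4.2a and used DESeq2 under R 3.2.2; the counting tool, its strand setting and its treatment of multi-mapping reads are not given in the sources used here. The deposited values are whole-number counts per RefSeq gene symbol, 1 table per source, not normalized. Here edgeR 4.0.16 (R 4.3.3) was fitted to each table separately: filterByExpr (minimum count 10), TMM factors, glmQLFit and glmQLFTest without covariates, Benjamini-Hochberg adjustment over all genes tested, called under 0.05. SE is the log2 fold change divided by the square root of F. The bone and bone chip effects were set against each other by an interaction contrast over 12 libraries. In that fit and the fit of 18 libraries, a gene not listed for a source was given 0 counts there. Members counted as tested in those fits were thus not all tested in each source. The procedure was also run on simulated counts with 200 changed genes and the same dispersion for every gene. That setting is simpler than these data, and no result here rests on it. Total counts per library ranged from 4920977 to 43874837; a gene with few counts has an imprecise fold.

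Named in every library were members called the same way in all 3 comparisons and members called in opposite directions in bone and bone chips. Added were up to 2 called members per family and comparison with the largest change (libraries apart, at least 5 CPM in the higher group). The last were the 6 largest called differences between bone and bone chips among members with a mean of at least 5 CPM in any of those groups. Of each pathway list, up to 4 called genes per comparison with the largest change (at least 5 CPM in the higher group) were named, most by means or fold changes; 1 of them is not reported here. Other members given with means or fold changes were chosen after their values were seen. Members and lists were chosen with earlier results of these data known. Replicate numbers come from titles; nothing says that libraries came from separate animals or cultures, so p-values measure only the spread between these samples. Residuals of same-numbered libraries correlated at 0.175, 0.347 and 0.408 in bone chips. Each GFP+ (hi) library there correlated most with the GFP- library of its own number, so the numbers were taken to pair the bone chip samples. The bone chip values given are still from the fit without pairs, with the replicate block as an alternative. The correlations were -0.03 to 0.03 in bone and about -0.02 in the ESC comparison, where the numbers do not pair the samples. Alternatives were DESeq2 1.42.0, RLE factors, no filter, a filter at 1 CPM in 3 libraries, a replicate block, thinned libraries, 1 fit of 18 libraries, and leaving out each library; in bone also leaving out GFP+ (hi) replicates 1 and 3 or genes under 1% of their ESC CPM (tables scaled separately). Exon lengths and overlaps are from GENCODE vM1 on NCBIM37 (mm9), promoters from RefSeq.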

Additional observations from a re-analysis of the deposited data

Results flagged for a closer look

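A difference between the GFP effects of bone and bone chips, by the test of the difference itself, was found for 18 members with a greater log2 fold change in bone and 21 with a lower one, taken with its sign (14.4% and 15.2% of all genes tested were called in these directions). The bone effect minus the bone chip effect on the log2 scale was -5.32 for *Xylt1*, -3.53 for *Chst11*, -4.05 for *Extl1*, -4.75 for *Galnt18* and -5.87 for *Hs3st1*, the genes lower in bone and higher in bone chips. It was -4.50 for *Chst3*, -5.92 for *Hs3st3a1* and -4.33 for *Hs3st3b1*. Over the alternatives *Hs3st1* ran from -6.98 to -5.17, *Hs3st3a1* from -8.21 to -5.42 and *Hs3st3b1* from -6.60 to -2.47. The genes higher in bone and lower in bone chips differed by 2.55 for *B4galnt1*, 1.91 for *St6galnac4*, 1.57 for *B4galt1* and 1.46 for *Mgat1*, and *Chst13*, higher in both, by 4.52, which ran from 3.79 to 8.13 over the alternatives. Some tested markers of other cell types also differed between GFP+ (hi) and GFP- cells within each source. Called below GFP- cells in bone were 10 of 11 chondrocyte, 5 of 6 fibroblast and progenitor, and 3 of 5 monocyte and macrophage markers. The bone chip counts were 4 of 11, 5 of 5 and 1 of 6. Called above GFP- cells were 1 fibroblast and progenitor marker in bone and 2 chondrocyte markers in bone chips. What such cells add to the differences listed here was not tested.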

How the results depend on the processing

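Under the alternatives run, no count of members called moved by over 1.5 times. No result of a named gene that was called, in the main fit or in the alternative, changed its sign. Signs of results called in neither were not compared. Leaving out each library in turn, the counts of members higher and lower ranged from 15 to 20 and 20 to 24 (bone), 18 to 21 and 28 to 34 (bone chips), and 50 to 54 and 12 to 16 (ESC-OB), and those of log2 fold changes greater and lower in bone from 16 to 20 and 16 to 23. Over all genes tested these ranges were 1932 to 2408 and 2186 to 2814 (bone), and 2006 to 2848 and 2198 to 3084 (bone chips). In ESC-OB they were 6331 to 6976 and 4666 to 5412, and for the differences between bone sources 1539 to 2251 and 1632 to 2257. With the replicate block, which pairs the libraries, the counts of members were 20 and 22 (bone), 21 and 33 (bone chips), 51 and 13 (ESC-OB), and 18 and 22 (greater and lower in bone). One fit of 18 libraries gave member counts of 27 and 29 (bone), 18 and 24 (bone chips) and 53 and 14 (ESC-OB). Over all 15883 genes tested in that fit, 4055 and 3529 were called (bone), 1868 and 2115 (bone chips), and 6655 and 5182 (ESC-OB). Of the member calls made, 29 of 44 (bone), 38 of 51 (bone chips), 58 of 66 (ESC-OB) and 31 of 39 (differences between the bone sources) were lost under none of the alternatives. In bone, the replicate block ended the calls of *St6galnac2* (adjusted p = 0.0619), *B4galnt3* (0.0891), *B4galt5* (0.0511) and *Hs3st1* (0.0563), and in the ESC comparison those of *B3galt4* (adjusted p = 0.0555), *Fut10* (0.0632) and *St6galnac2* (0.0515), where the numbers do not pair the samples. It ended the bone chip call of *B3galt6* (adjusted p = 0.0771) and the differences between bone sources of *Chst14* (0.0601) and *St8sia2* (0.0572), and no other call of a member. The fit of 18 libraries ended the bone chip calls of *St6galnac4* (adjusted p = 0.101), *Fut8* (0.143), *Ndst1* (0.082), *B4galnt1* (0.272), *Fut11* (0.15), *Galnt7* (0.179), *St8sia2* (0.11), *B3galt6* (0.207), *Extl3* (0.145), *Galnt4* (0.092), *St6gal1* (0.125) and *Hs2st1* (0.31), and the ESC-OB calls of *Hs6st1* (0.178), *St6galnac2* (0.14) and *St6galnac3* (0.0691). The cause was not tested. Depth limits the scarce genes: bone GFP- libraries were the shallowest of the bone sources, at 5482065 to 6468750 counts, and the 12 members tested nowhere cannot be described at this depth.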
